A study of Columba livia with 12 samples.

Results

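Breast muscle of the White-King pigeon, a breed of Columba livia raised for meat, was compared between birds aged 28 days (28D) and birds aged 1 day (1D). The comparison uses 6 of the 12 RNA sequencing libraries that the labels list, namely the 3 libraries of 28D and the 3 libraries of 1D. They were taken as the value columns that carry these ages and the replicate numbers 1, 2 and 3 in 2 tables of expression values, 1 of mRNA genes and 1 of long noncoding RNAs (lncRNAs). The remaining labelled libraries came from birds aged 14 days (14D) and 2 years (2Y), again 3 per age. The 14D libraries are set beside the comparison, and the 2Y libraries were not analysed here. All birds share the breed and the tissue, no treatment or genotype is given, and the sex of the birds is not in the labels. Each library is bulk muscle, so fewer cells of a type and less RNA per cell cannot be told apart. Separate birds are not stated for the libraries of an age, and the p-values therefore measure the spread between libraries, which may be partly technical. The study asked which mRNAs and lncRNAs differ in abundance as the muscle develops after hatching.

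Pigeon chicks hatch naked and unable to feed themselves, and they are fed crop milk by both parents while they grow to near adult size in the nest. The breast muscle, or pectoralis, moves the wing down and powers flight. In adult pigeons it consists mainly of fast fibres that are rich in mitochondria, myoglobin and fat, with some fast glycolytic fibres among them. Embryonic and newly hatched muscle of birds carries slow, cardiac and embryonic forms of many contractile proteins, which are exchanged for adult forms while fibres enlarge and their nuclei are supplied by dividing precursor cells.

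Values are in TPM, the usual unit in which a transcript's reads are divided by its length and by the library's total, so levels of different genes can be compared but the number of reads behind a value is unknown. The sum of the mRNA table was 841238 ± 4657 TPM for 1D against 778740 ± 14882 TPM for 28D (mean ± SD, 3 libraries each), and the lncRNA table held 15.3% ± 0.469 and 21.5% ± 1.49 of the TPM of both tables. Spearman correlations over mRNA genes lay between 0.977 and 0.982 among the 1D libraries, between 0.961 and 0.978 among the 28D libraries and between 0.81 and 0.829 across the 2 ages. Skeletal muscle transcripts were abundant in every library, as the tissue label implies. ACTA1, the skeletal muscle actin, had 12157, 10915 and 13964 TPM at 1D and 17477, 19082 and 17631 TPM at 28D, whereas GRHL3, the 1 tested marker of epidermis and feather follicles, fell from 1.74 ± 0.619 to 0.372 ± 0.106 TPM and was at most 2.12 TPM in every library of both ages. GRHL3 met the filter for testing (1 TPM in 3 libraries) only through the 1D libraries. Markers of liver and blood plasma summed to between 236 and 621 TPM over the libraries of both ages, most of it APOA1, and albumin (ALB) ranged from 0.878 to 46.9 TPM.

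Genes were tested with limma on log2(TPM + 1), with the 14D libraries in the same fit so that the 3 ages share 1 estimate of the spread, and a gene was called at a Benjamini-Hochberg adjusted p below 0.05 over all tested genes. In what follows, ± after a mean is the SD over 3 libraries, ± after a log2 change is its standard error, and a log2 change is that of TPM + 1, which understates the change of genes with low values. Of 11951 tested mRNA genes 7209 (60.3%) were called at 28D against 1D, with 1960 (16.4%) higher and 5249 (43.9%) lower. At least 2-fold changes were found in 1006 of the higher and 2884 of the lower genes, and at least 4-fold changes in 215 and 689. Over all tested genes the median change was -0.38 in log2 units, so list medians below are also given relative to that value. After each library was rescaled by its median ratio to the others, which centres the genes by construction, the median was -0.01 and the counts were 3404 higher and 3538 lower, close to the 3440 and 3495 after quantile normalization. Counts after this rescaling stand in square brackets behind each list. List counts are to be read beside the 16.4% higher and 43.9% lower of all tested genes. Counts in brackets are to be read beside 3404 and 3538 of 11951. The 3 libraries of 28D lay wholly above those of 1D in 19% of the tested genes and wholly below them in 49%. A lack of overlap, as stated for genes below, was thus common. In this comparison, lists with 0 calls in a direction also had 0 members at an unadjusted p below 0.05 in it, except for 2 red blood cell markers.

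The greatest rises among abundant genes whose libraries did not overlap between the ages included genes of fat storage, oxygen storage, energy transfer and the Z-disc. DGAT2, the enzyme of the last step of triacylglycerol synthesis, had 3.57, 1.22 and 0.426 TPM at 1D and 529, 449 and 601 TPM at 28D (log2 change 7.75 ± 0.60, adjusted p = 3.71e-06). MB, the oxygen-binding myoglobin, had 58.2, 58.9 and 89 TPM at 1D and 12898, 10763 and 11242 TPM at 28D (log2 change 7.41 ± 1.00, adjusted p = 0.000123). Both were low in all 1D libraries and high in all 28D libraries. The other 8 rises named by the same rule were GPD1, G0S2, FOS, RPL3L, FHL2, PCMTD1, MYOZ3 and CKMT2, with log2 changes from 6.68 for GPD1 to 4.49 for CKMT2. PCMTD1 rose from 3.81 ± 1.1 to 149 ± 65.8 TPM, and the others are described with their groups.

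The greatest falls included genes of slow-type sarcomere proteins, a globin, secreted factors and enzymes of methyl group metabolism. MYBPC1, the form of myosin-binding protein C found in slow fibres, had 1291, 1642 and 1279 TPM at 1D and 0.435, 1.6 and 1.07 TPM at 28D (log2 change -9.46 ± 0.81, adjusted p = 6.53e-06). HBAD, the alpha-D haemoglobin chain of birds, had 420, 267 and 247 TPM at 1D and 0.465, 0.208 and 0 TPM at 28D (log2 change -7.97 ± 0.32, adjusted p = 1.37e-07). MAT1A, which makes S-adenosylmethionine, had 263, 197 and 340 TPM at 1D and 1.95, 2.12 and 3.13 TPM at 28D (log2 change -6.28 ± 0.22, adjusted p = 8.6e-08). In all 3 genes the 1D libraries were high and the 28D libraries close to 0. Pleiotrophin (PTN), a secreted growth factor, fell from 156 ± 42.5 to 0.495 ± 0.478 TPM, and stanniocalcin 2 (STC2), a secreted glycoprotein, from 135 ± 40.5 to 1.31 ± 0.288 TPM. SARDH, the mitochondrial sarcosine dehydrogenase, fell from 68 ± 28.7 to 0.696 ± 0.352 TPM, and DYDC1 from 109 ± 31.1 to 0.535 ± 0.123 TPM. HBAD, PTN and DYDC1 met the filter of 1 TPM in 3 libraries only with the help of the 1D libraries, where they are high. The limma p-value of HBAD is therefore no independent support. THBS4, MYOM3 and TNNI1, the remaining genes of this set, are described below.

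**Figure D1:**
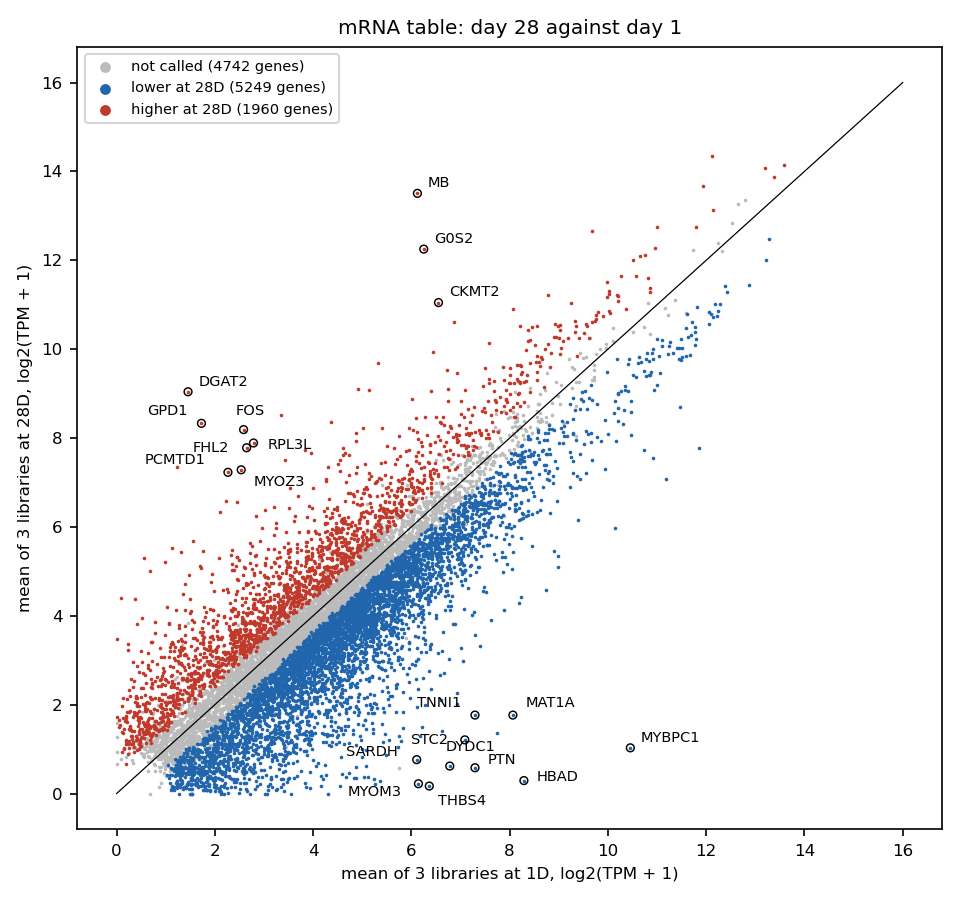
Mean log2(TPM + 1) of the 3 libraries at 28D (vertical axis) against the mean at 1D (horizontal axis) for 11951 mRNA genes, with 1960 genes higher (red), 5249 lower (blue) and 4742 not called (grey). The black line marks equal values, and the circled genes are the 10 greatest rises and 10 greatest falls named by rule, with DGAT2 farthest above the line and MYBPC1 farthest below it.

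**Figure D2:**
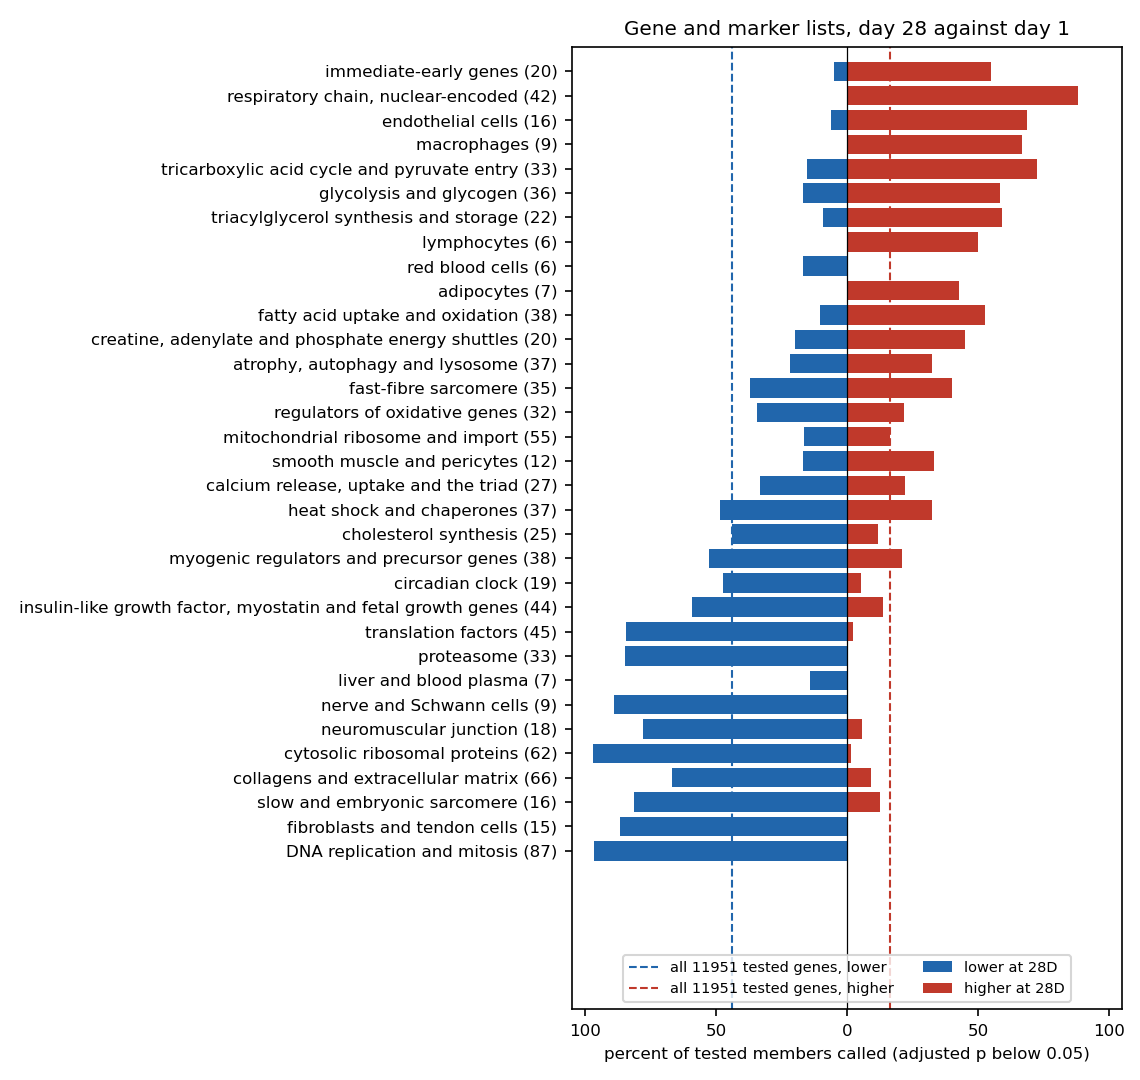
Percent of the tested members of each gene or marker list that were higher (red, to the right) or lower (blue, to the left) at 28D than at 1D, with the number of tested members in brackets. Dashed lines mark the 16.4% higher and 43.9% lower of all tested genes, and lists are ordered by their median log2 change, from DNA replication and mitosis (-2.59) at the bottom to immediate-early genes (1.16) at the top.

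Most members of the slow, cardiac-type and embryonic sarcomere list were lower at 28D. This list also holds NES, DES, ANKRD1 and ANKRD2, which are not contractile proteins. Of 16 tested members 13 were lower and 2 higher [12 and 2], with a median log2 change of -1.91, or -1.53 relative to all genes. The summed level overlapped between the ages, with 8046 to 9317 TPM at 1D and 7669 to 8257 TPM at 28D. TNNC1, a riser described below, made up most of the sum at 28D. TNNI1, the slow troponin I, had 131, 233 and 105 TPM at 1D and 1.61, 3.35 and 2.23 TPM at 28D (log2 change -5.48 ± 0.29, adjusted p = 4.78e-07). TNNT2, the cardiac troponin T of embryonic skeletal muscle, had 68, 87.3 and 64.8 TPM at 1D and 1, 3.23 and 1.22 TPM at 28D (log2 change -4.79 ± 0.34, adjusted p = 2.34e-06). The slow myosin light chain MYL3 had 39.7, 47.8 and 43.9 TPM at 1D and 1.21, 0.497 and 0.734 TPM at 28D (log2 change -4.64 ± 0.20, adjusted p = 1.95e-07). These 3 genes were at a few TPM or less in every 28D library, below all 1D libraries. MYL3 met the filter of 1 TPM in 3 libraries only with the help of the 1D libraries, where it is high. Its limma p-value is thus no independent support. NES, the intermediate filament nestin of growing fibres, fell from 298 ± 83.6 to 20.3 ± 1.71 TPM, and desmin (DES), the intermediate filament around the Z-discs, from 1185 ± 135 to 332 ± 97.7 TPM. The 2 tested heavy chains were low at both ages, and MYH15 fell from 4.9 ± 0.885 to 1.42 ± 0.629 TPM and MYH7B from 2.26 ± 0.0763 to 0.42 ± 0.263 TPM.

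The 2 risers of that list were ANKRD1 and TNNC1. ANKRD1, an ankyrin repeat protein that binds titin and responds to mechanical stress, rose from 13.2 ± 4.31 to 212 ± 141 TPM, while its relative ANKRD2 fell from 30.4 ± 7.5 to 1.29 ± 0.21 TPM. TNNC1, the troponin C of slow and cardiac muscle, had 1331, 565 and 570 TPM at 1D and 5917, 6920 and 6646 TPM at 28D (log2 change 3.10 ± 0.36, adjusted p = 5.03e-05). TNNC2, the fast-fibre troponin C, had 8924, 10310 and 9160 TPM at 1D and 4893, 3782 and 3619 TPM at 28D (log2 change -1.22 ± 0.21, adjusted p = 0.000571). Every 1D library held more TNNC2 than TNNC1, and every 28D library more TNNC1 than TNNC2. TNNC2 had the greatest loss in TPM of all mRNA genes. The fast troponin T TNNT3 had 4866 ± 727 TPM at 1D and 5350 ± 265 TPM at 28D and did not pass (log2 change 0.15 ± 0.17, adjusted p = 0.472), although it passed as higher after the median-ratio rescaling (log2 change 0.57, adjusted p = 0.0251).

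The fast-fibre sarcomere list also holds genes of all striated muscle, such as titin (TTN), so its counts do not describe fast fibres alone. Its genes moved both ways, 14 of 35 higher and 13 lower [18 and 11], with a median of 0.15 (0.53 relative to all genes). Within several families 1 paralogue rose and another fell. Of the Z-disc myozenins, MYOZ3 had 5.38, 4.46 and 4.57 TPM at 1D and 126, 175 and 165 TPM at 28D (log2 change 4.74 ± 0.27, adjusted p = 6.8e-07). MYOZ1 rose from 544 ± 180 to 1160 ± 82.3 TPM, while MYOZ2 fell from 316 ± 54.8 to 134 ± 20.1 TPM. Of the proteins that cap or extend the thin filament, TMOD4 rose from 63.9 ± 7.06 to 472 ± 82.8 TPM and LMOD3 from 53 ± 5.17 to 91.5 ± 18.7 TPM. Conversely, TMOD1 had 988, 1249 and 1132 TPM at 1D and 56.8, 71.2 and 58.2 TPM at 28D (log2 change -4.16 ± 0.22, adjusted p = 5.2e-07) and LMOD2 fell from 120 ± 4.62 to 3.83 ± 1.68 TPM. The alpha tropomyosin TPM1 rose from 4539 ± 413 to 9043 ± 429 TPM, and the beta tropomyosin TPM2 fell from 2837 ± 253 to 414 ± 69.2 TPM. In none of these 9 genes did the libraries of 1D and 28D overlap, which also held for 68% of all tested genes. Several of the 9 were picked after their values were seen.

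In the M-band, which ties the thick filaments together, MYOM3 had 58.4, 92 and 58.8 TPM at 1D and 0.142, 0.152 and 0.2 TPM at 28D (log2 change -5.89 ± 0.20, adjusted p = 8.6e-08), so that it was nearly absent from all 28D libraries. MYOM3 met the filter of 1 TPM in 3 libraries only through the 1D libraries, where it is high. Its limma p-value is therefore no independent support. MYOM2 fell from 550 ± 166 to 307 ± 26 TPM, and MYOM1 had 166 ± 23.7 TPM at 1D and 190 ± 13.5 TPM at 28D and did not pass (log2 change 0.20 ± 0.14, adjusted p = 0.222). MYLK4, a myosin light chain kinase, rose from 0.595 ± 0.105 to 31.2 ± 3.87 TPM. Titin (TTN) fell from 126 ± 4.21 to 59.9 ± 10.8 TPM. ACTA1 passed as higher (log2 change 0.56 ± 0.17, adjusted p = 0.0156) but the adjusted p was 0.0539 without 1D replicate 2 and 0.0812 without 28D replicate 2, and after quantile normalization the log2 change was -0.11. Paralogues of the sarcomere families share sequence, and how reads that fit several of them were counted is not given in the sources used here.

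**Figure D3:**
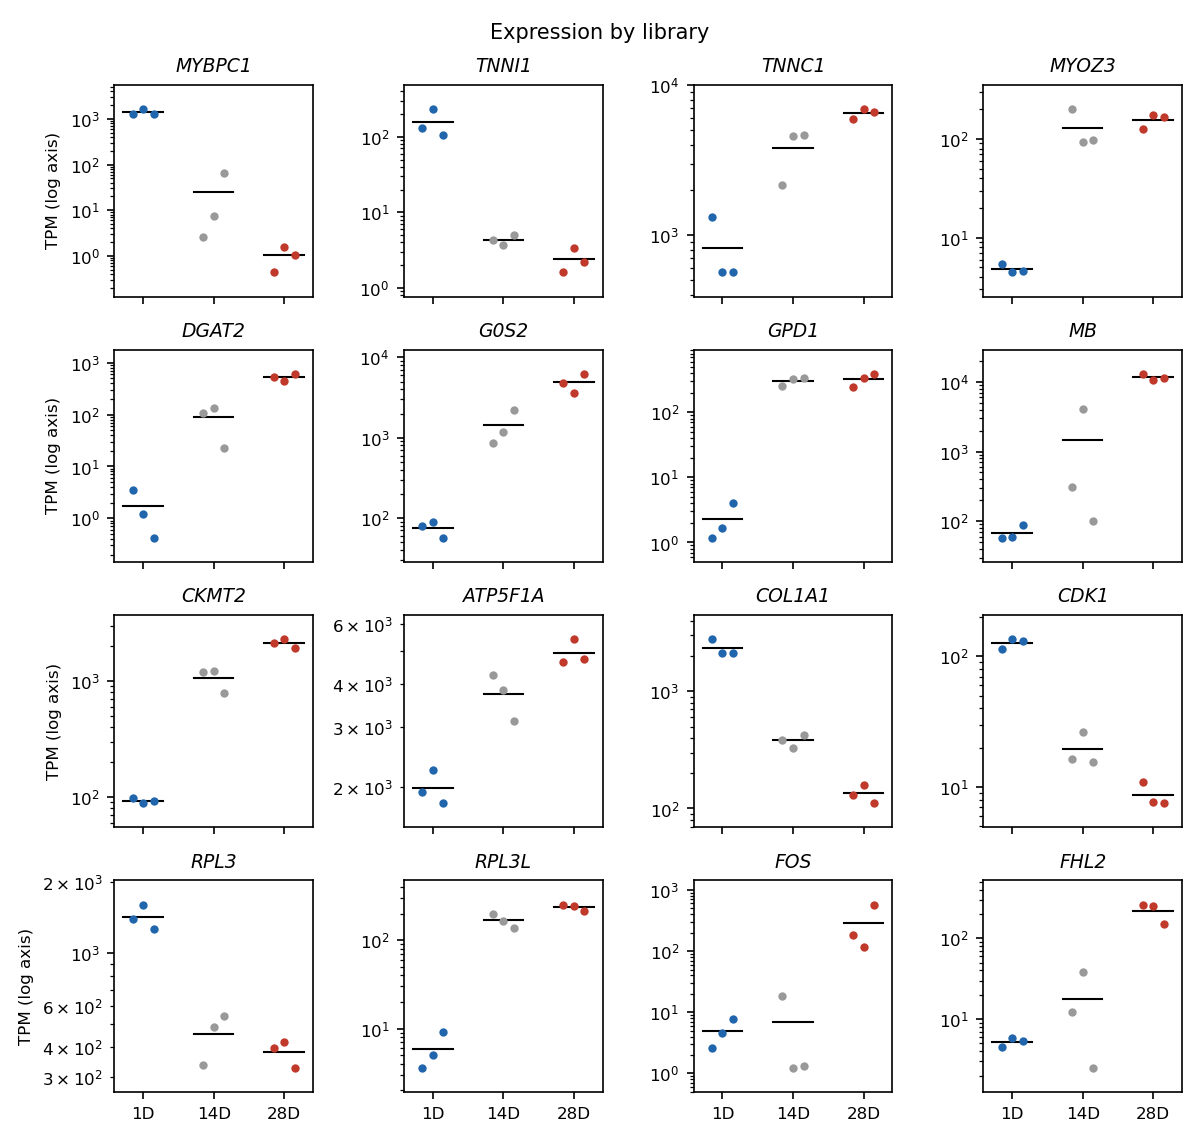
TPM (log axis) of 16 genes in each library of 1D (blue), 14D (grey) and 28D (red), with 1 dot per library in the order of replicates 1 to 3 and a bar at the mean of 3 libraries. The 28D dots lie below all 1D dots for MYBPC1, TNNI1, COL1A1, CDK1 and RPL3 and above them for the other 11 genes.

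Of 27 genes of calcium release and uptake 6 (22.2%) were higher and 9 (33.3%) lower [6 and 6], beside 16.4% and 43.9% of all tested genes. The median was -0.16 (0.23 relative to all genes), and the higher count was 3 when replicate 3 of either age was left out. Sarcolipin (SLN), a small inhibitor of the calcium pump, rose from 190 ± 46.6 to 1134 ± 162 TPM, and the release channel RYR1 from 63.5 ± 5.48 to 136 ± 6.57 TPM. ATP2A2, the slow and cardiac calcium pump, had 176, 121 and 140 TPM at 1D and 34.7, 29.1 and 37.9 TPM at 28D (log2 change -2.06 ± 0.23, adjusted p = 3.99e-05), with all 28D libraries below all 1D libraries. CAV3, the muscle caveolin, fell from 451 ± 105 to 77.9 ± 6.89 TPM, sarcalumenin (SRL), a calcium-binding protein of the reticulum, from 601 ± 71.6 to 118 ± 13.2 TPM, and BIN1, which shapes the transverse tubules, from 276 ± 45.5 to 90.1 ± 19.1 TPM.

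Genes of the neuromuscular junction were mostly lower, 14 of 18 against 1 higher [13 and 1], with a median of -1.23 (-0.85 relative to all genes). MUSK, the kinase that gathers acetylcholine receptors at the synapse, had 17.8, 11.1 and 12.7 TPM at 1D and 2.09, 2.67 and 2.3 TPM at 28D (log2 change -2.13 ± 0.20, adjusted p = 1.23e-05). The fetal receptor subunit CHRNG had 13.5, 16.7 and 14.2 TPM at 1D and 4.85, 4.7 and 6.63 TPM at 28D (log2 change -1.31 ± 0.30, adjusted p = 0.00312). The delta subunit CHRND fell from 54.8 ± 10.1 to 15.5 ± 2.42 TPM. All 3 were lower in every 28D library than in any 1D library. NCAM1, the neural cell adhesion molecule that developing fibres also carry, fell from 28.8 ± 2.2 to 4.62 ± 0.266 TPM, and agrin (AGRN), a signal to MUSK, from 39.7 ± 5.54 to 8.74 ± 0.672 TPM. LRP4, the agrin receptor, was the riser (from 1.06 ± 0.0934 to 2.19 ± 0.311 TPM), and CHRNA1 had 8.12 ± 1.41 TPM at 1D and 11.6 ± 4.46 TPM at 28D and did not pass (log2 change 0.42 ± 0.47, adjusted p = 0.464). Markers of nerve and Schwann cells were lower as well, 8 of 9 with 0 higher [6 and 0, and 5 lower without 1D replicate 1 or 2], and they summed to 383 to 536 TPM at 1D and 144 to 149 TPM at 28D. ERBB3, a neuregulin receptor on both lists, fell from 10.1 ± 3.89 to 0.203 ± 0.063 TPM, and it met the filter of 1 TPM in 3 libraries only through 1D. The part of nerve content in the fall of the junction genes was not tested.

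Among myogenic regulators and precursor genes, 20 of 38 (52.6%) were lower and 8 (21.1%) higher [13 and 9], beside 43.9% and 16.4% of all tested genes. The median of -0.51 lay close to that of all genes (-0.13 relative to it). PAX7, the transcription factor of satellite cells, had 8.99, 8.25 and 6.97 TPM at 1D and 3.21, 3.46 and 2.83 TPM at 28D (log2 change -1.12 ± 0.19, adjusted p = 0.000514). CDH15, the cadherin of muscle precursors, had 70.1, 108 and 92.1 TPM at 1D and 16.6, 16.9 and 10 TPM at 28D (log2 change -2.57 ± 0.25, adjusted p = 1.33e-05). Both were lower in every 28D library. EYA1, a coactivator of early muscle genes, fell from 29 ± 12 to 2.73 ± 0.611 TPM, CDH2 from 11.5 ± 1.09 to 1.1 ± 0.365 TPM, and musculin (MSC), a repressor of MYOD1 activity, from 113 ± 28.1 to 20.7 ± 3.28 TPM. Of the 4 myogenic factors, MYF5 fell from 31.4 ± 12.5 to 13.6 ± 1.3 TPM and MYF6 from 98.6 ± 13.4 to 50.8 ± 16.2 TPM, though MYF6 had an adjusted p of 0.0686 after median-ratio rescaling and 0.0605 after quantile normalization. MYOD1 had 239, 129 and 241 TPM at 1D and 196, 186 and 139 TPM at 28D (log2 change -0.18 ± 0.29, adjusted p = 0.612), and its libraries overlapped between the ages. MYOG had 13.3 ± 8.72 TPM at 1D and 7.84 ± 1.19 TPM at 28D and did not pass either (log2 change -0.53 ± 0.45, adjusted p = 0.328). LBX1, a homeobox factor of migrating limb muscle precursors, rose from 8.91 ± 0.906 to 27.8 ± 7.43 TPM.

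Subunits of the respiratory chain, the mitochondrial complexes that pass electrons to oxygen and make ATP, were higher at 28D in 37 of 42 tested nuclear-encoded members and lower in 0 [40 and 0], with a median of 1.06 (1.44 relative to all genes). Their summed level was 26879 to 31469 TPM in the 1D libraries and 57531 to 63955 TPM in the 28D libraries. ATP5F1A, the alpha subunit of ATP synthase, had 1935, 2238 and 1798 TPM at 1D and 4658, 5414 and 4727 TPM at 28D (log2 change 1.31 ± 0.16, adjusted p = 7.51e-05). NDUFV1, the complex I subunit that accepts electrons from NADH, had 341, 319 and 336 TPM at 1D and 1216, 1158 and 1124 TPM at 28D (log2 change 1.81 ± 0.14, adjusted p = 4.48e-06). NDUFA1, another subunit of complex I, had 230, 431 and 388 TPM at 1D and 1441, 1248 and 1667 TPM at 28D (log2 change 2.09 ± 0.23, adjusted p = 3.51e-05). None of these genes overlapped between the ages. The 5 members that did not pass included NDUFB6 (96.1 ± 33.5 TPM at 1D and 195 ± 56.4 TPM at 28D, log2 change 1.02 ± 0.56, adjusted p = 0.139).

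Enzymes of the tricarboxylic acid cycle and of pyruvate entry followed the same direction, 24 of 33 (72.7%) higher and 5 (15.2%) lower [27 and 3]. The shares of all tested genes were 16.4% and 43.9%. The median of the list was 0.95 (1.33 relative to all genes). Without 1D replicate 1 or 2 the lower count was 3. Citrate synthase (CS) had 471, 439 and 408 TPM at 1D and 982, 1167 and 1162 TPM at 28D (log2 change 1.33 ± 0.14, adjusted p = 2.2e-05), with a clear gap between the ages. The regulators of the pyruvate dehydrogenase complex rose on both sides, the activating phosphatase PDP1 from 10.6 ± 0.843 to 116 ± 84.6 TPM and the inhibiting kinase PDK2 from 18.1 ± 5 to 134 ± 16.6 TPM. The kinase PDK4 had 99.9, 450 and 464 TPM at 1D and 1167, 604 and 1784 TPM at 28D (log2 change 1.97 ± 0.67, adjusted p = 0.0273), and leaving out 1D replicate 1 gave an adjusted p of 0.105, 28D replicate 1 one of 0.0643 and 28D replicate 3 one of 0.0941. SUCLA2, a subunit of succinyl-CoA synthetase that makes ATP, rose from 107 ± 4.76 to 546 ± 64.9 TPM, while SUCLG2, the subunit that makes GTP, fell from 47.9 ± 7.39 to 17.1 ± 7.77 TPM. GOT1, the cytosolic aspartate aminotransferase of the malate-aspartate shuttle, rose from 179 ± 7.36 to 759 ± 145 TPM.

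Of 38 genes of fatty acid uptake and oxidation, 20 were higher and 4 lower [26 and 4], with a median of 0.45 (0.83 relative to all genes). Under a filter of 5 TPM the lower count was 2. CD36, the membrane carrier of fatty acids, had 229, 207 and 195 TPM at 1D and 422, 369 and 402 TPM at 28D (log2 change 0.92 ± 0.22, adjusted p = 0.0041). ACADM, a dehydrogenase of beta-oxidation, had 237, 297 and 230 TPM at 1D and 566, 660 and 580 TPM at 28D (log2 change 1.24 ± 0.20, adjusted p = 0.000386). In both the libraries of the 2 ages were apart. CRAT, which makes acetylcarnitine, rose from 128 ± 13.7 to 370 ± 134 TPM, and ETFB, a carrier of electrons from fatty acids, from 33.3 ± 27.1 to 114 ± 18 TPM, with a higher value in 1D replicate 2 than in the other 1D libraries (16.5, 64.6 and 18.8 TPM). CPT1B, the muscle form of the mitochondrial entry enzyme, passed narrowly (from 158 ± 17.3 to 221 ± 32.2 TPM, log2 change 0.48 ± 0.16, adjusted p = 0.0254) and lost the call without 1D replicate 1 or 2 or 28D replicate 2 or 3 (adjusted p 0.0906, 0.072, 0.0782 and 0.0729). FABP3, the fatty acid-binding protein of muscle, had 2539, 2615 and 1688 TPM at 1D and 3162, 1166 and 1512 TPM at 28D and did not pass (log2 change -0.34 ± 0.62, adjusted p = 0.66), with overlapping libraries. CPT1A had 31.3 ± 8.65 TPM at 1D and 23.7 ± 4.03 TPM at 28D (log2 change -0.37 ± 0.21, adjusted p = 0.149) and lipoprotein lipase (LPL) 123 ± 17.2 TPM at 1D and 166 ± 25.2 TPM at 28D (log2 change 0.42 ± 0.30, adjusted p = 0.246). Neither passed, although LPL passed as higher after median-ratio rescaling (adjusted p = 0.0258) and quantile normalization (adjusted p = 0.0442). ACSL3, which activates fatty acids for lipid droplets, fell from 26.4 ± 2.47 to 3.52 ± 0.603 TPM.

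Triacylglycerol synthesis and storage genes were higher in 13 of 22 and lower in 2 [16 and 1], with a median of 0.72 (1.11 relative to all genes), and the higher count was 8 without 1D replicate 2 or 3. Their summed level was 577 to 723 TPM at 1D and 5633 to 8514 TPM at 28D. G0S2, an inhibitor of the fat-cleaving lipase PNPLA2, had 80.1, 88.4 and 57.1 TPM at 1D and 4859, 3592 and 6177 TPM at 28D (log2 change 5.99 ± 0.33, adjusted p = 5.82e-07). GPD1, which makes glycerol 3-phosphate, the backbone of triacylglycerol, had 1.19, 1.66 and 4.09 TPM at 1D and 243, 335 and 385 TPM at 28D (log2 change 6.68 ± 0.29, adjusted p = 1.95e-07). Both were higher in every 28D library than in any 1D library, and G0S2 alone made up most of the summed level at 28D. LPIN1, a phosphatidate phosphatase, rose from 4.48 ± 1.17 to 39.2 ± 4.15 TPM, MGLL, the monoacylglycerol lipase, from 67.2 ± 3.26 to 348 ± 53.9 TPM, and PLIN2, a coat protein of lipid droplets, from 109 ± 32 to 212 ± 73.2 TPM. PNPLA2 itself had 90.1 ± 9.32 TPM at 1D and 181 ± 140 TPM at 28D and did not pass (log2 change 0.73 ± 0.41, adjusted p = 0.152). Adipocyte markers, of which 5 are shared with the other lists, were higher in 3 of 7 (42.9%) and lower in 0 [5 and 0]. The shares of all tested genes were 16.4% and 43.9%. These markers summed to 207 to 391 TPM at 1D and 351 to 480 TPM at 28D. Among the higher ones PLIN1 and CIDEA are also on the storage list. PLIN1 had 8.84, 2.56 and 1.1 TPM at 1D and 11.3, 13.6 and 6.88 TPM at 28D, with overlapping libraries. Adiponectin (ADIPOQ), the hormone of fat cells, had 53.2, 42.1 and 34.7 TPM at 1D and 199, 163 and 167 TPM at 28D (log2 change 2.01 ± 0.18, adjusted p = 7.65e-06). The higher count of the adipocyte list was 1 without 1D replicate 2 or 3 or without 28D replicate 1. The part of fat cells in the rise of storage genes was not tested.

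Genes of glycolysis and glycogen were higher in 21 of 36 (58.3%) and lower in 6 (16.7%) [26 and 3], beside 16.4% and 43.9% of all tested genes. Their median was 0.88 (1.26 relative to all genes). PGM1, phosphoglucomutase, which links glycogen to glycolysis, had 103, 93.2 and 118 TPM at 1D and 664, 761 and 776 TPM at 28D (log2 change 2.80 ± 0.14, adjusted p = 3.89e-07). PPP1R3C, which brings a phosphatase to glycogen, had 1.88, 1.95 and 1.98 TPM at 1D and 73.8, 28.9 and 47.6 TPM at 28D (log2 change 4.02 ± 0.28, adjusted p = 2.19e-06). Both were higher in every 28D library. SLC2A12, a glucose transporter, rose from 1.55 ± 0.875 to 21.6 ± 4 TPM, aldolase C (ALDOC) from 268 ± 4.75 to 1921 ± 457 TPM, and SLC16A1, a lactate and pyruvate carrier, from 53.8 ± 6.12 to 191 ± 32.3 TPM. PHKA1, the muscle form of a phosphorylase kinase subunit, rose from 28.9 ± 5.04 to 111 ± 12.7 TPM, while its liver form PHKA2 fell from 14.1 ± 1.92 to 1.9 ± 0.466 TPM. Enolase 1 (ENO1) fell from 802 ± 77.5 to 274 ± 50.6 TPM.

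Of 20 genes of the creatine, adenylate and phosphate shuttles, which carry energy from mitochondria to the filaments, 9 were higher and 4 lower [12 and 1], with a median of 0.44 (0.82 relative to all genes). CKMT2, the mitochondrial creatine kinase of muscle, had 97.2, 89.1 and 92.1 TPM at 1D and 2121, 2290 and 1940 TPM at 28D (log2 change 4.49 ± 0.18, adjusted p = 1.37e-07), a wide gap with little spread at either age. ADSS1, the muscle adenylosuccinate synthase, rose from 28.5 ± 3.3 to 244 ± 76.8 TPM. The ADP/ATP carrier SLC25A4, the form of muscle and heart, rose from 1724 ± 102 to 4442 ± 611 TPM, and the form SLC25A6 fell from 818 ± 111 to 180 ± 23.6 TPM.

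Regulators of oxidative genes were higher in 7 of 32 (21.9%) and lower in 11 (34.4%) [14 and 8], near the 16.4% and 43.9% of all tested genes. The list also holds myoglobin (MB), which is an oxygen store and no regulator, and MB is 1 of the 7 higher members. The median of the list was 0.07 (0.45 relative to all genes). PERM1, a muscle regulator of mitochondrial genes, had 11.7, 6.31 and 7.33 TPM at 1D and 73.9, 49.5 and 77 TPM at 28D (log2 change 2.86 ± 0.26, adjusted p = 9.87e-06). ESRRB, an orphan nuclear receptor, had 6.47, 5.53 and 4.8 TPM at 1D and 26.8, 48.2 and 31.1 TPM at 28D (log2 change 2.43 ± 0.22, adjusted p = 9.34e-06). Both were higher in all 28D libraries, whereas PPARGC1A, known as a driver of mitochondrial biogenesis, had 26.4, 26 and 17.2 TPM at 1D and 24.8, 16.8 and 27.1 TPM at 28D and overlapped between the ages (log2 change -0.02 ± 0.25, adjusted p = 0.945). PPARA, a receptor that senses fatty acids, fell from 40.6 ± 7.24 to 9.27 ± 2.1 TPM, and ESRRG, a relative of ESRRB, from 49.1 ± 14.8 to 16.3 ± 6.45 TPM. The 2 deiodinases, which set the level of thyroid hormone inside cells, both fell. DIO2, which activates the hormone, had 10.9, 26.2 and 21.7 TPM at 1D and 2.31, 0.93 and 2.35 TPM at 28D (log2 change -2.81 ± 0.31, adjusted p = 3.39e-05). DIO3, which inactivates it, had 7.46, 11.9 and 11.1 TPM at 1D and 0.221, 0.337 and 0.212 TPM at 28D (log2 change -3.13 ± 0.23, adjusted p = 2.58e-06). DIO3 met the filter of 1 TPM in 3 libraries only with the help of the 1D libraries, where it is high. Its limma p-value is thus no independent support. The thyroid hormone receptor THRA had 93.7 ± 10.4 TPM at 1D and 71.1 ± 4.3 TPM at 28D and did not pass (log2 change -0.39 ± 0.18, adjusted p = 0.0891).

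Genes of the mitochondrial ribosome and of protein import into mitochondria were higher in 9 of 55 (16.4%) and lower in 9 (16.4%), beside 16.4% and 43.9% of all tested genes. Their median was 0.02 (0.40 relative to all genes). These counts depended on the scaling, since 30 were higher and 3 lower after median-ratio rescaling and 25 and 4 after quantile normalization. MRPS6, of the small mitochondrial ribosomal subunit, rose from 58.3 ± 9.68 to 208 ± 50.6 TPM, and TOMM70, an import receptor of the outer membrane, fell from 67.7 ± 3.86 to 25.9 ± 3.97 TPM.

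Genes of DNA replication and mitosis fell nearly as a block. Of 87 tested members 84 were lower and 0 higher [83 and 0], with a median of -2.59 (-2.21 relative to all genes) and a summed level of 4228 to 4389 TPM at 1D and 662 to 799 TPM at 28D. CDK1, the kinase that starts mitosis, had 113, 135 and 131 TPM at 1D and 10.9, 7.71 and 7.56 TPM at 28D (log2 change -3.73 ± 0.21, adjusted p = 7.34e-07). TOP2A, the topoisomerase that separates chromosomes, had 61.8, 74.3 and 65.8 TPM at 1D and 5.14, 5.45 and 4.27 TPM at 28D (log2 change -3.52 ± 0.19, adjusted p = 5.2e-07). CENPK, a kinetochore protein, had 76.1, 68.4 and 85.7 TPM at 1D and 4, 1.79 and 3.08 TPM at 28D (log2 change -4.33 ± 0.24, adjusted p = 6.36e-07). All 3 were low but present in every 28D library. RRM2, which supplies deoxynucleotides, fell from 100 ± 25.4 to 5.53 ± 0.894 TPM, TYMS, the thymidylate synthase, from 36.4 ± 3.36 to 1.57 ± 0.497 TPM, and SPC25, of the kinetochore, from 83.1 ± 11.3 to 4.07 ± 2.5 TPM. The 3 members that did not pass were CCND1 (41.6 ± 10.4 TPM at 1D and 29.5 ± 6.38 TPM at 28D), SMC4 (19.8 ± 0.99 TPM at 1D and 15.7 ± 1.2 TPM at 28D) and GMNN (50.3 ± 6.42 TPM at 1D and 48.3 ± 14.3 TPM at 28D), with adjusted p of 0.0896, 0.166 and 0.724.

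Cytosolic ribosomal protein genes were lower in 60 of 62 and higher in 1 [55 and 1], with a median of -1.33 (-0.95 relative to all genes). Their summed level was 140798 to 165963 TPM at 1D and 54683 to 72447 TPM at 28D. RPL3, of the large subunit near its catalytic centre, had 1397, 1603 and 1259 TPM at 1D and 397, 419 and 327 TPM at 28D (log2 change -1.89 ± 0.19, adjusted p = 2.08e-05). RPL3L, which replaces RPL3 in ribosomes of striated muscle, had 3.58, 5.02 and 9.11 TPM at 1D and 254, 242 and 213 TPM at 28D (log2 change 5.18 ± 0.26, adjusted p = 3.89e-07). The paralogues thus moved in opposite directions with no overlap between the ages, and with RPL3 still the more abundant of the pair at 28D. RPS29 had 3062 ± 1218 TPM at 1D and 1808 ± 250 TPM at 28D and did not pass (log2 change -0.68 ± 0.32, adjusted p = 0.0907). Ribosomal protein genes have near-identical copies in many genomes, so the split of reads between copies is uncertain.

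Translation factors were lower in 38 of 45 and higher in 1 [27 and 4], with a median of -0.93 (-0.55 relative to all genes). The riser was EEF1A2, the elongation factor form of muscle and neurons, with 1070, 1141 and 889 TPM at 1D and 1743, 1940 and 1869 TPM at 28D (log2 change 0.85 ± 0.17, adjusted p = 0.00147). Its paralogue EEF1A1, used in most cells, had 3653, 4838 and 4241 TPM at 1D and 1935, 2047 and 1506 TPM at 28D (log2 change -1.22 ± 0.19, adjusted p = 0.000278). At 1D every library held more EEF1A1 than EEF1A2, and at 28D the ranges of the pair overlapped. EIF6, which keeps ribosomal subunits apart, fell from 49.6 ± 3.44 to 12.4 ± 1.24 TPM.

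Proteasome subunits were lower in 28 of 33 and higher in 0 [22 and 2], with a median of -1.02 (-0.64 relative to all genes). PSMA5, of the catalytic core, had 380, 360 and 450 TPM at 1D and 93.6, 100 and 93.7 TPM at 28D (log2 change -2.03 ± 0.14, adjusted p = 1.85e-06), with no overlap between the ages. Genes of atrophy, autophagy and the lysosome were higher in 12 of 37 (32.4%) and lower in 8 (21.6%) [17 and 4], beside 16.4% and 43.9% of all tested genes. Their median was 0.22 (0.61 relative to all genes). SQSTM1, the autophagy receptor p62, rose from 99.3 ± 30.2 to 357 ± 69.6 TPM, MAP1LC3A, of the autophagosome membrane, from 146 ± 15.6 to 328 ± 29.7 TPM, and FBXO40, a muscle ubiquitin ligase subunit, from 1.05 ± 0.0681 to 17.3 ± 4.18 TPM. The muscle ubiquitin ligases FBXO32 and TRIM63 had 28.6 ± 17.5 TPM at 1D and 61.1 ± 28 TPM at 28D (log2 change 1.11 ± 0.53, adjusted p = 0.0946) and 58.9 ± 38.7 TPM at 1D and 122 ± 66.6 TPM at 28D (log2 change 1.05 ± 0.56, adjusted p = 0.128). Neither passed, but FBXO32 was called higher after median-ratio rescaling (adjusted p = 0.0414), after quantile normalization (0.0435) and when replicate 2 of 1D (0.0329) or of 28D (0.0476) was left out. TRIM63 was called higher when replicate 2 of 1D (adjusted p = 0.0386) or of 28D (0.0232) was left out.

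Of 37 heat shock genes and chaperones 12 (32.4%) were higher and 18 (48.6%) lower [14 and 13], beside 16.4% and 43.9% of all tested genes. The median of -0.41 was -0.02 relative to all genes. All 8 tested subunits of the CCT chaperonin, which folds actin and tubulin, were lower. TCP1, a subunit of this complex, had 333, 280 and 317 TPM at 1D and 71, 68.9 and 77.2 TPM at 28D (log2 change -2.08 ± 0.12, adjusted p = 8.76e-07). CCT5 fell from 331 ± 6.39 to 96.4 ± 9.11 TPM. HSP90AA1, a chaperone of myosin folding, had 340, 319 and 336 TPM at 1D and 1504, 1180 and 1479 TPM at 28D (log2 change 2.05 ± 0.15, adjusted p = 2.58e-06), so that TCP1 and HSP90AA1 were at like levels at 1D and far apart at 28D. Its partner DNAJB1 rose from 4.49 ± 0.838 to 22.5 ± 1.76 TPM, as did HSPA8 (from 369 ± 48.7 to 831 ± 146 TPM).

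Collagens and other matrix genes were lower in 44 of 66 and higher in 6 [41 and 10], with a median of -1.67 (-1.29 relative to all genes). COL1A1, a chain of the fibre-forming type I collagen, had 2778, 2104 and 2105 TPM at 1D and 131, 160 and 112 TPM at 28D (log2 change -4.11 ± 0.18, adjusted p = 1.95e-07). COL14A1, a collagen that binds to such fibres, had 117, 88.2 and 89.6 TPM at 1D and 1.77, 2.12 and 1.1 TPM at 28D (log2 change -5.23 ± 0.22, adjusted p = 1.67e-07). THBS4, a matrix glycoprotein of tendon and muscle attachment, had 66.3, 110 and 68.2 TPM at 1D and 0.232, 0.082 and 0.0591 TPM at 28D (log2 change -6.16 ± 0.21, adjusted p = 8.6e-08). Every 28D library was below every 1D library for these genes, and THBS4 was nearly absent. THBS4 met the filter of 1 TPM in 3 libraries only through the 1D libraries, so its limma p-value is no independent support. Elastin (ELN) fell from 293 ± 92.9 to 18.4 ± 3.93 TPM, and VCAN, the proteoglycan versican of growing tissue, from 71.6 ± 15.2 to 1.45 ± 0.379 TPM.

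Basement membrane collagens, which surround fibres and vessels, were not uniform. COL4A5 fell from 167 ± 21.4 to 9 ± 0.437 TPM, COL4A6 fell from 81.3 ± 13.8 to 5.79 ± 0.821 TPM, COL4A2 rose from 295 ± 34.8 to 418 ± 18.3 TPM, and COL4A1 had 633 ± 44.5 TPM at 1D and 746 ± 55.3 TPM at 28D and did not pass (log2 change 0.24 ± 0.19, adjusted p = 0.295). Other risers were asporin (ASPN), a small matrix proteoglycan, from 23.4 ± 5.5 to 196 ± 85.4 TPM, and SERPINH1, the chaperone of collagen, from 124 ± 35.1 to 314 ± 21.9 TPM. Markers of fibroblasts and tendon cells, of which 6 are shared with the other lists, were lower in 13 of 15 and higher in 0 [13 and 0]. They summed to 6675 to 8484 TPM at 1D and 948 to 999 TPM at 28D. PDGFRA, the receptor that marks muscle fibroblasts, fell from 56.1 ± 7.25 to 12 ± 0.672 TPM, and tenomodulin (TNMD), a protein of tendon cells, from 14.5 ± 1.89 to 1.35 ± 0.129 TPM. The part of fibroblast content in the fall of matrix genes was not tested.

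Among growth genes, namely those of insulin-like growth factor signalling, of myostatin and of fetal growth, 26 of 44 (59.1%) were lower and 6 (13.6%) higher [20 and 9], with 10 higher after quantile normalization. The shares of all tested genes were 43.9% and 16.4%. IGF1, the growth factor, had 37.4, 28.2 and 15.8 TPM at 1D and 1.83, 0.546 and 2.26 TPM at 28D (log2 change -3.46 ± 0.33, adjusted p = 1.32e-05). Growth hormone receptor (GHR) fell from 237 ± 24.7 to 89.9 ± 5.33 TPM. Follistatin (FST), which binds and blocks myostatin, had 36, 32.1 and 28.4 TPM at 1D and 7.05, 6.75 and 6.83 TPM at 28D (log2 change -2.07 ± 0.14, adjusted p = 2.11e-06). IGF1 and FST were lower in all 28D libraries than in any 1D library. Myostatin (MSTN), the inhibitor of muscle growth, had 94.6, 36 and 93.6 TPM at 1D and 42.9, 39.5 and 36 TPM at 28D and did not pass (log2 change -0.78 ± 0.34, adjusted p = 0.0691). It was called lower without 1D replicate 2, its lowest 1D library (log2 change -1.24, adjusted p = 0.00161). Without 1D replicate 1 or 3 the adjusted p was 0.233 or 0.227. The log2 change was -0.37 after median-ratio rescaling (adjusted p = 0.396) and -0.42 after quantile normalization (adjusted p = 0.347). Of the IGF2 mRNA-binding proteins of fetal tissue, IGF2BP1 fell from 22.5 ± 1.72 to 0.127 ± 0.0464 TPM, IGF2BP2 from 42.1 ± 5.33 to 1.25 ± 0.597 TPM and IGF2BP3 from 30.8 ± 3 to 0.771 ± 0.215 TPM. IGF2BP1 met the filter of 1 TPM in 3 libraries only with the help of the 1D libraries, where it is high. The embryonic chromatin protein HMGA2 fell from 8.55 ± 2.01 to 0.0814 ± 0.0705 TPM. EIF4EBP1, the translation repressor that mTOR inactivates, fell from 1701 ± 237 to 213 ± 72.1 TPM. IGFBP7, a secreted binding protein also made by vessels, rose from 366 ± 23 to 1090 ± 90.2 TPM, and DEPTOR, an inhibitor of mTOR, from 32.7 ± 8.19 to 81.1 ± 26.2 TPM.

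Immediate-early genes, which respond within minutes to many stimuli, were higher in 11 of 20 and lower in 1 [12 and 0], with a median of 1.16 (1.54 relative to all genes) and 2 lower without 1D replicate 2. FOS, a subunit of the AP-1 transcription factor, had 2.6, 4.65 and 7.76 TPM at 1D and 181, 116 and 577 TPM at 28D (log2 change 5.36 ± 0.81, adjusted p = 0.000269). Its partner JUN had 61.2, 70.6 and 62.1 TPM at 1D and 238, 161 and 461 TPM at 28D (log2 change 2.00 ± 0.34, adjusted p = 0.000514). DUSP1, a phosphatase that ends kinase signals, had 26.5, 32.2 and 26.6 TPM at 1D and 171, 154 and 498 TPM at 28D (log2 change 3.02 ± 0.53, adjusted p = 0.000676). The 28D libraries lay above the 1D libraries throughout, and 28D replicate 3 was the highest in each of the 3 genes. The list summed to 659 to 736 TPM in the 1D libraries and 1401 to 3721 TPM in the 28D libraries. Without 28D replicate 3 the log2 change of FOS was 4.70 (adjusted p = 0.00119). EGR1 had 41 ± 6.26 TPM at 1D and 122 ± 108 TPM at 28D and did not pass (log2 change 1.13 ± 0.62, adjusted p = 0.137). FHL2, a LIM protein of heart and muscle that is on no list, had 4.57, 5.79 and 5.41 TPM at 1D and 261, 247 and 149 TPM at 28D (log2 change 5.10 ± 0.66, adjusted p = 9.69e-05), with replicate 3 the lowest of the 28D libraries.

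Endothelial markers were higher in 11 of 16 (68.8%) and lower in 1 (6.25%) [14 and 0]. For these and the following marker lists, the shares of all tested genes were 16.4% higher and 43.9% lower. The endothelial markers summed to 682 to 794 TPM at 1D and 1268 to 1396 TPM at 28D. TEK, the angiopoietin receptor, had 13, 16 and 11.1 TPM at 1D and 45, 40.6 and 31.6 TPM at 28D (log2 change 1.48 ± 0.22, adjusted p = 0.000265). The von Willebrand factor VWF rose from 31.5 ± 6.2 to 79.4 ± 17.5 TPM. Smooth muscle and pericyte markers were higher in 4 of 12 (33.3%) and lower in 2 (16.7%) [5 and 1], with a median of -0.08 (0.31 relative to all genes). They summed to 982 to 1199 TPM at 1D and 1001 to 1099 TPM at 28D, and 1 was lower without 1D replicate 1, 1D replicate 2 or 28D replicate 2. The pericyte marker RGS5 rose from 52.5 ± 5.15 to 265 ± 11.6 TPM, KCNJ8 of the same cells from 8.67 ± 1.06 to 38.7 ± 3.71 TPM, and the smooth muscle actin ACTA2 fell from 314 ± 26.3 to 188 ± 49.5 TPM. Macrophage markers were higher in 6 of 9 (66.7%) and lower in 0 [8 and 0]. CD74, a chaperone of antigen-presenting cells, had 28.3, 58.6 and 16.4 TPM at 1D and 638, 610 and 372 TPM at 28D (log2 change 4.08 ± 0.40, adjusted p = 1.53e-05), the main share at 28D of a sum that was 65 to 130 TPM at 1D and 517 to 878 TPM at 28D. Lymphocyte markers were higher in 3 of 6 (50%) and lower in 0 [4 and 0], with 5 higher after quantile normalization and 1 under a filter of 5 TPM. Their sum was 15 to 18.4 TPM at 1D and 31.2 to 38.5 TPM at 28D.

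Of 6 tested red blood cell markers 1 was lower, HBAD, and 0 were higher [1 and 3, and 3 higher without 1D replicate 1]. They summed to 477 to 757 TPM at 1D and 308 to 527 TPM at 28D, and the part of blood content in the fall of HBAD was not tested. TFRC, the transferrin receptor, had 210 ± 36.8 TPM at 1D and 370 ± 116 TPM at 28D (log2 change 0.77 ± 0.41, adjusted p = 0.124), and the red cell membrane protein SLC4A1 29.2 ± 21.6 TPM at 1D and 36.2 ± 4.35 TPM at 28D (log2 change 0.54 ± 0.41, adjusted p = 0.282), and neither passed. Of the liver and plasma markers 1 of 7 was lower, SERPINC1, and 0 were higher [1 and 1, and 2 lower without 28D replicate 2]. FTH1, the heavy chain of the iron store ferritin, had the greatest gain in TPM of all mRNA genes, from 4423 ± 422 to 20687 ± 7110 TPM, after 43000 ± 8344 TPM at 14D.

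Most of the change from 1D to 28D was already present at 14D. Of the 1960 genes higher at 28D, the mean at 14D lay between the 1D and the 28D mean in 1462 (74.6%) and at or past the 28D mean in 451 (23%), and the median share of the log2 change reached by 14D was 78% (interquartile range 57.4% to 97.6%). Of the 5249 lower genes it lay between in 4187 (79.8%) and at or past in 1026 (19.5%), with a median share of 83.3% (70.1% to 96.3%). Since both comparisons use the 1D libraries, these shares are descriptions. The test of 28D against 14D, which is the test of the difference between the changes by 28D and by 14D, called 65 genes higher (0.544%) and 104 lower (0.87%), or 112 and 106 after median-ratio rescaling. In that limma test 1896 of 11951 genes had an unadjusted p below 0.05, so genes without a call are not shown to be unchanged after 14D. At 14D against 1D the same test called 1623 higher (13.6%) and 4688 lower (39.2%), or 2931 and 3100 after median-ratio rescaling.

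Fat storage, the respiratory chain and immediate-early genes supplied several of the later rises. DGAT2 had 109, 133 and 22.6 TPM at 14D and rose further to 28D (28D against 14D, log2 change 2.90 ± 0.60, adjusted p = 0.0454), as did G0S2 with 865, 1192 and 2229 TPM at 14D (28D against 14D, log2 change 1.85 ± 0.33, adjusted p = 0.028) and CKMT2 with 1201, 1211 and 790 TPM at 14D (28D against 14D, log2 change 1.01 ± 0.18, adjusted p = 0.0253). GPD1 differed, with 253, 324 and 337 TPM at 14D and no call from there to 28D (28D against 14D, log2 change 0.06 ± 0.29, adjusted p = 0.948). MB spread widely at 14D, with 307, 4042 and 100 TPM at 14D, and did not pass between 14D and 28D (28D against 14D, log2 change 4.53 ± 1.00, adjusted p = 0.059). In the respiratory chain list 3 of 42 members passed as higher at 28D than at 14D and 0 as lower, with 28 and 0 at an unadjusted p below 0.05. In the list of fatty acid uptake and oxidation 0 passed as higher, with 12 of 38 at an unadjusted p below 0.05. Of all 11951 tested genes, 0.544% passed as higher and 0.87% as lower. In either direction 1896 had an unadjusted p below 0.05. With so few calls among all genes, 0 calls do not set a list of this size apart.

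Of the immediate-early list 5 of 20 members were higher at 28D than at 14D and 0 lower, beside 0.544% and 0.87% of all tested genes. At an unadjusted p below 0.05 there were 13 and 1, beside 1896 of all 11951 genes in either direction. At 14D against 1D, 1 was higher and 2 were lower, beside 13.6% and 39.2% of all tested genes. FOS had 18.3, 1.23 and 1.3 TPM at 14D (28D against 14D, log2 change 5.64 ± 0.81, adjusted p = 0.0145) and DUSP1 46.5, 32.7 and 10.3 TPM at 14D (28D against 14D, log2 change 3.18 ± 0.53, adjusted p = 0.0209). APOLD1, an endothelial gene of early response, had 4.98, 4.61 and 8.92 TPM at 1D and 51, 23.1 and 152 TPM at 28D after 7.6, 6.83 and 1.82 TPM at 14D (28D against 14D, log2 change 3.33 ± 0.61, adjusted p = 0.03). FHL2 had 12.4, 38.4 and 2.49 TPM at 14D (28D against 14D, log2 change 4.12 ± 0.66, adjusted p = 0.0196), and in all 4 genes every 28D library lay above every 14D library. These 4 genes were named by rule for a large rise from 14D to 28D, which made a lack of overlap likely. The share of all tested genes without overlap between 14D and 28D was not determined.

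Matrix and cell division genes were among the later falls. Of the 66 matrix genes 11 passed as lower at 28D than at 14D and 0 as higher, with 26 and 4 at an unadjusted p below 0.05. Of 87 cell division genes 12 passed as lower and 0 as higher, with 54 and 0 at an unadjusted p below 0.05. Of all 11951 tested genes 0.87% passed as lower and 0.544% as higher, and 1896 had an unadjusted p below 0.05 in either direction. COL1A1 had 388, 329 and 427 TPM at 14D (28D against 14D, log2 change -1.50 ± 0.18, adjusted p = 0.00814) and CDK1 16.4, 26.4 and 15.5 TPM at 14D (28D against 14D, log2 change -1.05 ± 0.21, adjusted p = 0.0439). FST had 16.9, 16.4 and 19.5 TPM at 14D (28D against 14D, log2 change -1.24 ± 0.14, adjusted p = 0.00814). Each of these stepped down between all 3 ages without overlap, and the share of all tested genes that did so was not determined. SNTB1, a syntrophin of the membrane complex around dystrophin, had 45, 55.9 and 133 TPM at 14D (28D against 14D, log2 change -2.35 ± 0.37, adjusted p = 0.0181) and had not passed between 1D and 14D (log2 change 0.30 ± 0.37, adjusted p = 0.521). SEC14L5 had 41.1, 36 and 40.7 TPM at 1D and 5.1, 7.06 and 6.81 TPM at 28D with 24.8, 25.4 and 23.7 TPM at 14D between them (28D against 14D, log2 change -1.82 ± 0.15, adjusted p = 0.000765), and SARDH had 32, 7.45 and 11 TPM at 14D (28D against 14D, log2 change -3.16 ± 0.45, adjusted p = 0.0145).

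Ribosomal protein, translation factor and proteasome genes had no calls after 14D in the limma test. Of the 62, 45 and 33 tested members 0 passed between 14D and 28D in either direction. Since only 1.41% of all tested genes were called there, 0 calls do not set lists of this size apart. At an unadjusted p below 0.05 there were 1, 5 and 1 members, beside 1896 of all 11951 genes. At 14D against 1D, 61 ribosomal protein genes, 33 translation factors and 29 proteasome subunits were lower, beside 39.2% of all tested genes. The median log2 changes of these lists from 14D to 28D were 0.07, -0.16 and 0.04, beside -0.07 for all tested genes.

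**Figure D4:**
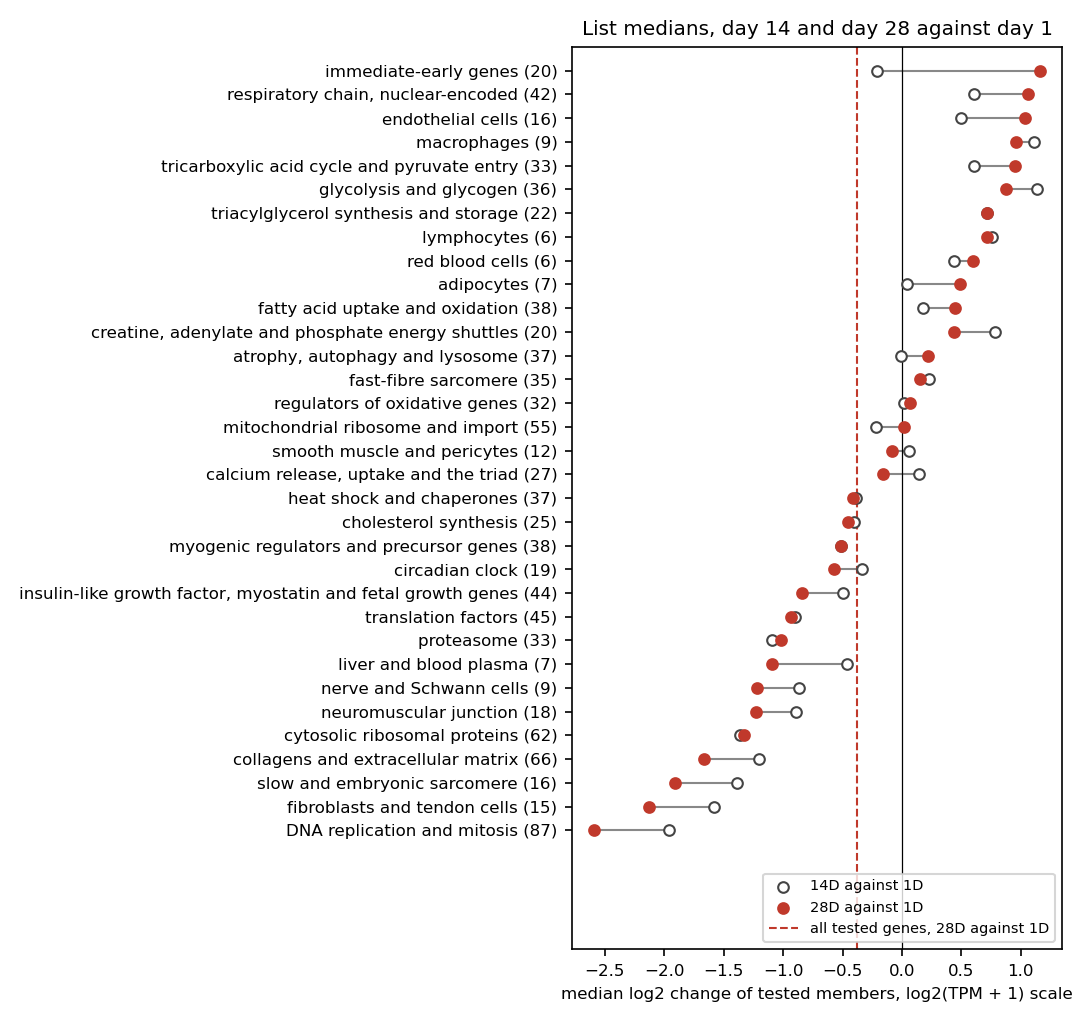
Median log2 change (log2(TPM + 1) scale) of the tested members of each list at 14D against 1D (open circles) and at 28D against 1D (red circles), with the median of all tested genes at 28D against 1D (-0.38) as a dashed line. Immediate-early genes stand at -0.21 by 14D and 1.16 by 28D, while cytosolic ribosomal proteins stand at -1.36 and -1.33.

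In the lncRNA table, 646 of 8685 tested entries (7.44%) were higher and 1956 (22.5%) lower at 28D, with a median log2(TPM + 0.1) change of -0.52. Without 1D replicate 1, 2 or 3 the lower count was 1121, 1159 or 1232, of 8195, 8214 or 8223 tested entries. An entry had to reach 0.1 TPM in 3 libraries. Some lower entries, LOC110354925 among them, passed this filter only through the 1D libraries, where they are high. Quantile normalization gave 1170 higher and 1175 lower, median-ratio rescaling 955 and 1416, and rescaling that table to a common total 425 and 2924. Between 14D and 28D, 6 entries were higher (0.0691%) and 5 lower (0.0576%). At least 4-fold changes were found in 293 of the higher and 1029 of the lower entries. Many called entries were rare: 257 of the lower ones were listed at 0 in all 28D libraries and 49 of the higher ones at 0 in all 1D libraries, and 196 higher and 336 lower entries reached a mean of 10 TPM at the higher age. Of 1293 tested entries that the reference annotation calls lncRNA, 88 were higher and 254 lower, and of 7174 entries that matched nothing in it, 527 were higher and 1654 lower.

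The greatest rises with at least 1 TPM and no overlap were those of the entries G22572, G15189, LOC102093299, 110365575 and LOC110361375, which the files and the reference give no function. G15189 had 0.319, 0.49 and 0.11 TPM at 1D and 28.8, 26 and 35.1 TPM at 28D (log2 change 6.32 ± 0.54, adjusted p = 0.000208). LOC102093299 had 1.34, 0.386 and 1.27 TPM at 1D and 134, 87.6 and 26.3 TPM at 28D after 2.2, 3.24 and 2 TPM at 14D, a late rise (28D against 14D, log2 change 4.74 ± 0.63, adjusted p = 0.0343). The entry 110365575 had 1.09, 0 and 0 TPM at 1D and 11.4, 14.1 and 16.2 TPM at 28D and was listed at 0 in all 14D libraries. G22572 was listed at 0 in all 1D libraries and had 11.9, 5.96 and 11.6 TPM at 28D. LOC110361375 rose from 0.155 ± 0.0465 to 15.1 ± 2.58 TPM.

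The greatest falls were those of 110357310, 110356159, LOC110354925, LOC102097898 and 110363915. The entry 110357310 had 163, 158 and 108 TPM at 1D and 0, 0 and 0.142 TPM at 28D (log2 change -10.03 ± 0.69, adjusted p = 0.000111). The entry 110356159 had 33.4, 38.8 and 39.2 TPM at 1D and was listed at 0 in all 28D libraries, as were LOC110354925 (14, 54.6 and 45.4 TPM at 1D) and 110363915 (13.2, 23.9 and 11.6 TPM). LOC102097898 had 21.8, 59.2 and 18.7 TPM at 1D and 0, 0.0609 and 0 TPM at 28D. In each of the 10 entries the 2 ages were apart, as the choice required.

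A few abundant entries carried the larger share of the lncRNA table at 28D. The 5 entries with the greatest gain in TPM, chosen for that gain, held 5.29% ± 0.462 of all TPM at 1D, 14.4% ± 2.79 at 14D and 12% ± 1.49 at 28D. Without them the table held 10% ± 0.117, 9.28% ± 0.293 and 9.43% ± 0.182. G22941 had 4417, 3625 and 6529 TPM at 1D and 29070, 27230 and 30549 TPM at 28D (log2 change 2.62 ± 0.27, adjusted p = 0.000395). G22763 had 8833, 5891 and 8245 TPM at 1D and 17175, 25214 and 26350 TPM at 28D (log2 change 1.58 ± 0.26, adjusted p = 0.00288). G22860 also rose, from 3861 ± 626 to 15480 ± 2853 TPM, as did G22708, from 857 ± 85.7 to 6867 ± 769 TPM, while G22683 had 35379 ± 1943 TPM at 1D and 45212 ± 7985 TPM at 28D and did not pass (log2 change 0.34 ± 0.19, adjusted p = 0.208). The lncRNA table also holds 214 tested entries that the reference calls protein-coding, 31 of them higher and 46 lower. Of all 8685 tested entries 7.44% were higher and 22.5% lower. The 2 genes named next are both among the higher ones. CHCHD10, a mitochondrial protein of muscle, had 127, 166 and 259 TPM at 1D and 1017, 917 and 1317 TPM at 28D (log2 change 2.61 ± 0.31, adjusted p = 0.000729). NDUFA7, a complex I subunit, had 1260, 1701 and 1548 TPM at 1D and 3466, 2769 and 2588 TPM at 28D (log2 change 0.97 ± 0.20, adjusted p = 0.00668). Both were higher in every 28D library than in any 1D library.

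**Figure D5:**
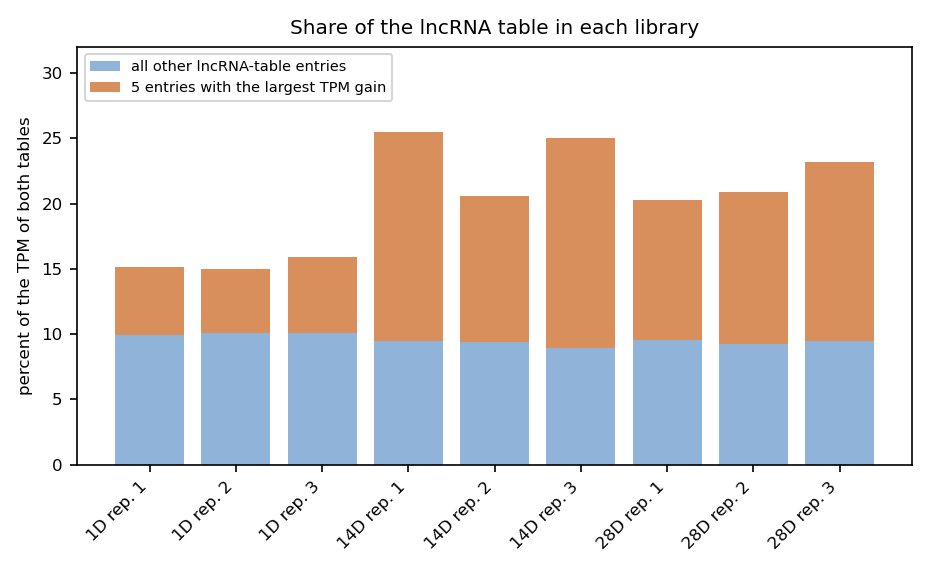
Percent of the TPM of both tables that lay in the lncRNA table in each of 9 libraries, split into the 5 entries with the greatest gain in TPM from 1D to 28D (orange) and all other entries (blue). The blue part stays close to 10% in every library, and the orange part rises from a mean of 5.29% at 1D to 14.4% at 14D and 12% at 28D.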

How the data were processed

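RNA sequencing of breast muscle was deposited as TPM values in 2 tables, 1 of mRNA genes (12918 entries) and 1 of lncRNAs (9158 entries). The authors' TPM values were used as deposited. The submitters' processing notes name STAR 2.6.0c and Cufflinks 2.1.1, with no role given, and the genome build, annotation, library strand and read counting are not given in the sources used here. Each table has 12 value columns, of which 3 match no label and were not used. TPM keeps no read depth, so no counting intervals could be computed.

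Columns were assigned to age and replicate by their names. Gene names came from RefSeq (assembly bColLiv1.pat.W.v2), in which 12256 mRNA and 1604 lncRNA entries were found. mRNA genes that reached 1 TPM in 3 or more of the 9 libraries were tested on log2(TPM + 1), and lncRNA entries that reached 0.1 TPM in 3 or more on log2(TPM + 0.1), with limma 3.58.1 (trended variance, R 4.3.3) and Benjamini-Hochberg adjustment over each table. The 1D, 14D and 28D libraries entered 1 fit without a replicate block. The steps were tested on simulated data. Of 100 planted changes of 1 log2 unit the mRNA test recovered 65 and the lncRNA test 5. Of 100 planted changes of 2 log2 units they recovered 92 and 50. The noise was normal, and changes were planted only in entries above 5 TPM (mRNA) or 1 TPM (lncRNA). Few entries changed in the simulation, with 166 and 59 calls against 7209 and 2602 in the data, so its adjusted threshold was stricter. The recovery in the data may therefore differ. Entries without a call, above all in the lncRNA table, are not shown to be unchanged.

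Alternatives were other pseudocounts, other filters, median-ratio and quantile scaling, rescaling each table to a common total, a fit of the 2 ages alone, a replicate block and leaving out each library. The rescaling to a common total, median-ratio scaling at 14D against 1D and for lncRNA at 28D against 14D, and the list counts under alternatives other than median-ratio and quantile scaling were chosen after seeing the data. Members, gene lists and tests were chosen with earlier results of these data known. Genes were named by rule: the 10 largest rises and falls with a symbol, at least 5 TPM and no overlap, for every list, the called members that changed most, up to 4, a fixed set whatever its result, 5 lncRNA entries each way with at least 1 TPM, and 5 genes each way from 14D to 28D with at least 20 TPM. Further list members, paralogues and abundant genes were named after their values were seen. Of the fixed set, MYLPF, MYBPC2, CHRNE, LDHA, LDHB, CKM and PVALB were not analysed here, and THRB was under the filter. Reads of near-identical genes may have been split between copies. Results for some genes are not reported here.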

Additional observations from a re-analysis of the deposited data

How the results depend on the processing

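Median-ratio rescaling moved the counts at 28D against 1D to 3404 higher and 3538 lower mRNA genes, and quantile normalization to 3440 and 3495. Median-ratio rescaling gave 112 higher at 28D against 14D, and 2931 higher and 3100 lower at 14D against 1D. For lncRNA entries quantile normalization gave 1170 higher and 1175 lower, rescaling to a common total of that table gave 425 higher, and a filter of 1 TPM gave 1203 lower. Leaving out 1 library gave 1582 to 1827 higher and 4330 to 4912 lower mRNA genes, and 435 to 634 higher and 1121 to 1774 lower lncRNA entries. ACTA1 reversed under quantile normalization (-0.11). The filter of 1 TPM left 4555 lncRNA entries to test, and leaving out a 1D library left 8195 to 8223, against 8685. The part of this in the lower counts was not tested, nor was the cause of the other changes.

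Same-numbered libraries did not deviate together (correlations of -0.0525 to 0.0183 between 1D and 28D over mRNA genes), so the numbers are not taken to pair them. With a replicate block the counts were 1909 higher and 5109 lower mRNA genes, and 558 and 1733 lncRNA entries. Most of the 164 named genes were chosen for the size of a called change, which favours stable calls, so their values do not describe all genes. Under 16 alternatives, 2564 of 2598 values of the named genes kept their side of the threshold and, where called, their direction. Another 23 lost the call, 10 gained it and 1, of a called gene, reversed. A change of direction without a call in either fit was not counted as a reversal. A further 26 values, of 10 genes, could not be given because the gene fell below the filter. Of these genes 6, THBS4, MYOM3, ERBB3, GRHL3, SOX10 and LOC110354925, were not tested when any 1D replicate was left out, since they passed the filter through the 1D libraries. The number of reads behind low values is unknown.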

Other observations

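Genes of the circadian clock were lower at 28D in 9 of 19 tested members (47.4%) and higher in 1 (5.26%) [4 and 4 after median-ratio rescaling]. The lower share is near the 43.9% of all tested genes. The median log2 change was -0.57 (-0.19 relative to all genes), and 2 were higher without 28D replicate 1. PER3, a repressor of the clock, had 23.6, 29.8 and 18.5 TPM at 1D and 3.44, 4.48 and 4.04 TPM at 28D (log2 change -2.30 ± 0.29, adjusted p = 7.91e-05), so every 28D library was below every 1D library. PER2 fell from 21.6 ± 9.06 to 9.65 ± 1.7 TPM, HLF, a transcription factor under clock control, from 27.8 ± 2.79 to 12.2 ± 2.82 TPM, and BHLHE41, another repressor, from 7.5 ± 3.31 to 2.44 ± 0.876 TPM. The adjusted p of BHLHE41 was 0.0531 after median-ratio rescaling, 0.0725 after quantile normalization and 0.054 and 0.0551 without 1D replicates 1 and 2, and that of HLF was 0.0512 after quantile normalization. BMAL1, an activator of the clock, had 15.8 ± 1.43 TPM at 1D and 12.8 ± 3.13 TPM at 28D and did not pass (log2 change -0.30 ± 0.19, adjusted p = 0.184).

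Genes of cholesterol synthesis were lower in 11 of 25 (44%) and higher in 3 (12%) [6 and 4 after median-ratio rescaling, and 6 lower after quantile normalization], with a median of -0.45 (-0.06 relative to all genes). These shares are near the 43.9% and 16.4% of all tested genes. FDPS, which makes farnesyl diphosphate, had 52.8, 44.8 and 54.7 TPM at 1D and 106, 95.8 and 102 TPM at 28D (log2 change 0.99 ± 0.16, adjusted p = 0.000425), and FDFT1, which makes squalene, rose from 20.1 ± 3.83 to 42.8 ± 3.17 TPM. HSD17B7, a later enzyme of the pathway, fell from 13.9 ± 1.35 to 3.7 ± 1.62 TPM.

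AHCY, DMGDH, GNMT and MTHFD2, enzymes of methyl group and one-carbon metabolism, are on no list and were picked after their values were seen. They stand for themselves and not for a pathway. AHCY, which removes the product of methylation, fell from 264 ± 28.5 to 32.2 ± 8.42 TPM, DMGDH, which oxidizes dimethylglycine beside SARDH, from 68.2 ± 11 to 2.85 ± 0.223 TPM, and GNMT, which methylates glycine, from 111 ± 8.79 to 25.5 ± 5.55 TPM. MTHFD2, a mitochondrial folate enzyme, rose from 14 ± 0.906 to 87.3 ± 7.07 TPM, with a log2 change 2.56 ± 0.13, adjusted p = 4.62e-07. GATM, which makes the precursor of creatine, is on the list of energy shuttles and was also picked after its values were seen. It had 137 ± 105 TPM at 1D and 65.6 ± 24.8 TPM at 28D and did not pass. At 14D it had 313, 305 and 454 TPM (28D against 14D, log2 change -2.47 ± 0.45, adjusted p = 0.03).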
